A study of Rattus norvegicus with 16 samples.

Results

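The comparison set day 14 against day 3 after implantation at the non-adhesive implants, using 8 of the 16 libraries of the series: 4 non-adhesive libraries from day 3 and 4 from day 14, chosen by their labels. All libraries came from the abdominal wall of female Sprague Dawley rats aged 12 weeks. Each site carried a polyurethane mock device with an adhesive layer of poly(acrylic acid) N-hydroxysuccinimide ester and poly(vinyl alcohol). In the non-adhesive implants this layer had been swollen overnight in phosphate-buffered saline, which removed its bonding, and the corners were sutured to the abdominal wall. The sutures were thus present in both groups compared, and no library of unimplanted abdominal wall was analysed here. The 8 libraries of the adhesive implant, 4 from each day, served to test whether the day change differed between the 2 kinds of implant. The labels do not say that the libraries of a group came from separate rats, so p-values measure the spread between libraries. The extraction text in the labels names another day than the sample descriptions, and the days here are those of the descriptions.

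A material placed in tissue starts as a wound: plasma proteins coat it, neutrophils and monocytes arrive, and macrophages stay at its surface. In the weeks that follow, fibroblasts lay down collagen, elastic fibres and other matrix around it, which becomes the fibrous capsule. The abdominal wall is mostly skeletal muscle covered by mesothelium, so libraries from this site also hold muscle RNA and the genes of muscle repair. In bulk tissue, fewer cells of a type and less RNA per cell cannot be told apart.

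Between day 3 and day 14, the genes with a symbol that fell by the largest factors included the cell cycle genes Cdk1 and Pttg1, the cell cycle inhibitor Cdkn1a, the nucleotide salvage kinase Uck2, the transcription factor Runx1 and the monocyte-attracting chemokine Ccl7. Of 24 ribosome assembly genes 4 fell, by smaller factors, beside 3.55% of all genes tested. The genes that rose included the matrix protein Dpt, the netrin receptor Unc5b and 3 of 21 genes of mature muscle, of which 1 other fell, beside 2.07% of all genes that rose. In edgeR's quasi-likelihood test with Benjamini-Hochberg adjustment, 575 of 14160 genes tested (4.06%) passed an adjusted p of 0.05 or lower with a log2 fold change of at least 1, of which 245 (1.73%) were higher and 330 (2.33%) lower on day 14. At the adjusted p alone, 795 genes passed (5.61%), of which 293 (2.07%) were higher and 502 (3.55%) lower, and 49.7% of all genes tested had a positive log2 fold change. Of the 575 genes, 561 had day 14 libraries all above or all below the day 3 libraries, where 7.92% of all genes tested lay wholly above and 10.0% wholly below. An unadjusted edgeR p under 0.05 was reached by 3678 of the 14160 genes tested. In DESeq2, 8.9% of all genes were higher and 9.39% lower at the adjusted p alone. A gene symbol could be assigned to 1909 of the genes tested, and 77 of the called genes had one, 33 higher and 44 lower. Gene levels are given below as CPM (a gene's counts as a share of its library's total, scaled with TMM factors, which set libraries to a common level over most genes), and each log2 fold change is day 14 over day 3 with its standard error (SE).

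The libraries differed in depth and in muscle RNA as well as in day. Day 3 libraries held 19921066 to 24858976 counts and day 14 libraries 14710269 to 16801635, without overlap. The share of counts held by the 10 most abundant genes was 7.72% to 13.1% on day 3 and 18.1% to 28.7% on day 14. Whether libraries of the days were extracted and prepared together is not given in the sources used here, so day and such a batch cannot be told apart. Principal components were computed from the 500 genes of highest variance. The first (55.3% of variance) separated the days and the second (24.8%) set day 14 replicate 4 and day 3 replicate 2 apart from the rest. The TMM factor of day 14 replicate 4 was 0.581, against 0.980 to 1.01 in the other day 14 libraries. Without day 14 replicate 4, 1101 genes were called, 616 higher and 485 lower, of which 545 were among the 575.

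**Figure D1:**
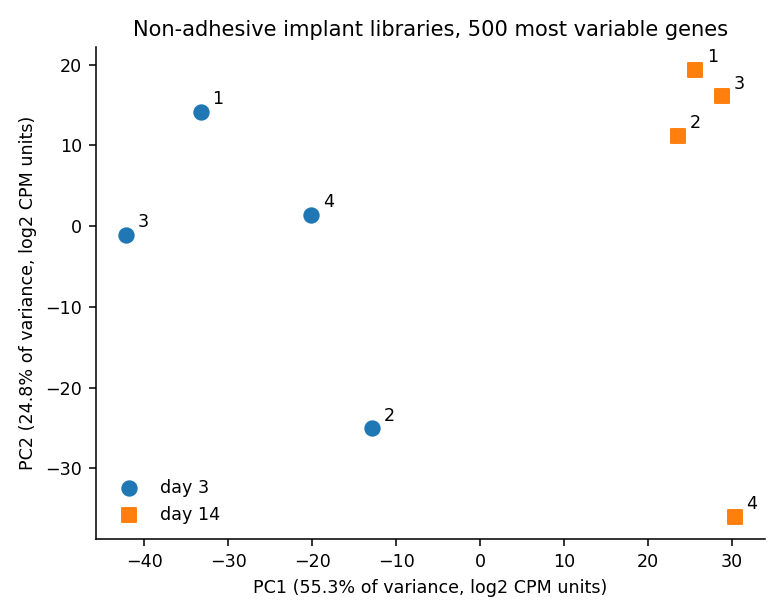
The 8 non-adhesive libraries on their first 2 principal components, from log2 CPM of the 500 genes of highest variance. Points are libraries with their replicate number, circles day 3 and squares day 14. Day 3 lies at -42.2 to -12.9 and day 14 at 23.6 to 30.4 on the first axis, and day 14 replicate 4 lies lowest on the second at -36.0.

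Cell cycle genes were tested one by one and counted as a list, with no test of the list itself. Of 26 members of the list of cell cycle and DNA replication genes tested, 25 had a negative log2 fold change, 5 fell at an adjusted p of 0.05 or lower and 0 rose, beside 3.55% of all genes that fell. The list's median log2 fold change was -1.39, against -0.003 over all genes tested, and the libraries did not overlap in 13 of the 26, beside 10.0% of all genes for which every day 14 library lay below day 3. The 5 that fell were Cdk1, Pttg1, Ung, Nuf2 and Aurka, and Nuf2 was named after its value was seen. In DESeq2 15 of the 26 fell, beside 9.39% of all genes, and without day 14 replicate 4 in edgeR 8 fell, beside 7.39%.

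The 250 bases before the annotated start of Cdk1, Pttg1 and Nuf2 are shown because these 3 genes of mitosis fell together. The sequences are RefSeq's on build GRCr8, 5′ to 3′ along the gene, with CCAAT and TTTGAA on either strand in capitals (ATTGG and TTCAAA are the same letters on the other strand). CCAAT is the letters bound by the factor NF-Y, and TTTGAA is a form of the cell cycle homology region known from promoters of mitotic genes.
Cdk1, plus strand, chr20:19265043-19265292: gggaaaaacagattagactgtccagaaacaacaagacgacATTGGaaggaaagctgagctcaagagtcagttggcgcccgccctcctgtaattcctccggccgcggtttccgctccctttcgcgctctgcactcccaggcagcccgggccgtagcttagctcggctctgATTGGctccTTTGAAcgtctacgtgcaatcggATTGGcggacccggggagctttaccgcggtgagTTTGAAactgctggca
Pttg1, minus strand, chr10:28406327-28406576: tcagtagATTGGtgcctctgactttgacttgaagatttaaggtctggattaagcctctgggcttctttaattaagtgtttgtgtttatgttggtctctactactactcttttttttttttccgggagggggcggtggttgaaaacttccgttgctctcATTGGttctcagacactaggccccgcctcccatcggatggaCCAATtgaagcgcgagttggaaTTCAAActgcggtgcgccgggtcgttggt
Nuf2, minus strand, chr13:84255599-84255848: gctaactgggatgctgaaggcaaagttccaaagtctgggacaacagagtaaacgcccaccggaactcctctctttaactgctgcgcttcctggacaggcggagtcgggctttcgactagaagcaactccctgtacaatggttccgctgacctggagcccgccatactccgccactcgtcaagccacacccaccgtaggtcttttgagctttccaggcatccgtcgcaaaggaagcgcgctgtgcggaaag

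The Cdk1 window held CCAAT 3 times and TTTGAA 2 times, the Pttg1 window held them 3 times and 1 time, and the Nuf2 window held neither. Among the 5 genes that fell, the Ung window also held both and the Aurka window held neither. Over all 33469 promoters of the same length, 34.0% held CCAAT, 16.2% TTTGAA and 5.87% both. Over the 24 list members with a promoter entry, 12 held CCAAT, 7 TTTGAA and 5 both. These matches describe letters in the windows and were not tested against the fold changes.

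Cdk1, the kinase that drives entry into mitosis, measured 26.2, 14.0, 26.9 and 27.3 CPM in day 3 replicates 1 to 4 and 7.43, 4.89, 4.33 and 1.77 CPM in day 14 replicates 1 to 4. All day 14 values lay below all day 3 values, with replicate 2 the lowest of day 3 and replicate 4 the lowest of day 14. The log2 fold change was -2.34 (SE 0.40, edgeR adjusted p = 0.0210). Pttg1, securin, which inhibits separase until anaphase, measured 8.33, 9.20, 7.53 and 10.2 CPM on day 3 and 3.18, 1.86, 1.05 and 0.885 CPM on day 14, again without overlap, with a log2 fold change of -2.31 (SE 0.39, edgeR adjusted p = 0.0207). Ung, the uracil-DNA glycosylase that removes uracil from DNA, went from a mean of 22.7 ± 11.4 CPM (SD, n = 4) to 5.38 ± 1.08 CPM (log2 fold change -2.07). Nuf2, a kinetochore subunit, fell by 2.00 on the log2 scale and Aurka, the mitotic spindle kinase, by 1.30.

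The remaining members did not pass. Cenpf, a kinetochore protein (log2 fold change -1.82), Kifc1, a spindle motor (-1.81), and Polq, a DNA polymerase of break repair (-2.06), had edgeR adjusted p of 0.052, 0.052 and 0.051. The replication factor C subunits Rfc2, Rfc3, Rfc4 and Rfc5, which load the replication clamp, had log2 fold changes of -0.50, -0.63, -0.59 and -0.22 and did not pass. Of the replicative helicase subunits, Mcm4 and Mcm6 had -0.65 and -1.27 and Mcm7 -0.13, and none passed. Rnaseh2a, a ribonuclease subunit, was the 1 member above 0 (0.17). The summed CPM of the list ran from 299.8 to 424.8 on day 3 and from 188.5 to 238.6 on day 14, so the days did not overlap.

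Ribosome biogenesis genes had smaller log2 fold changes. Of 24 members tested, 23 had a negative log2 fold change, with a median of -0.44, and 4 fell at an adjusted p of 0.05 or lower, beside 3.55% of all genes: Utp18 (log2 fold change -1.02), Ddx54 (-0.95), Tsr1 (-0.75) and Npm1 (-0.86). Utp18 belongs to the complex that processes the small subunit's RNA, Ddx54 is a nucleolar helicase, Tsr1 acts in late small subunit assembly, and Npm1 is nucleophosmin, a main nucleolar protein. Utp18 measured 24.7, 18.4, 25.5 and 21.8 CPM on day 3 and 11.9, 10.5, 11.1 and 11.1 CPM on day 14, where the day 14 libraries were close together and all below day 3. Npm1 went from 449.3 ± 80.8 CPM (SD, n = 4) to 247.1 ± 17.2 CPM. Without day 14 replicate 4, 9 of the 24 fell, beside 7.39% of all genes. The summed CPM of the list was 1112 to 1530 on day 3 and 820.0 to 998.7 on day 14. In the list of secretory pathway and endoplasmic reticulum folding genes, 15 of 19 were negative, the median was -0.42 and 1 fell, beside 3.55% of all genes, which is near the background: Sec24a, a coat protein of vesicles leaving the endoplasmic reticulum (log2 fold change -0.96).

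**Figure D2:**
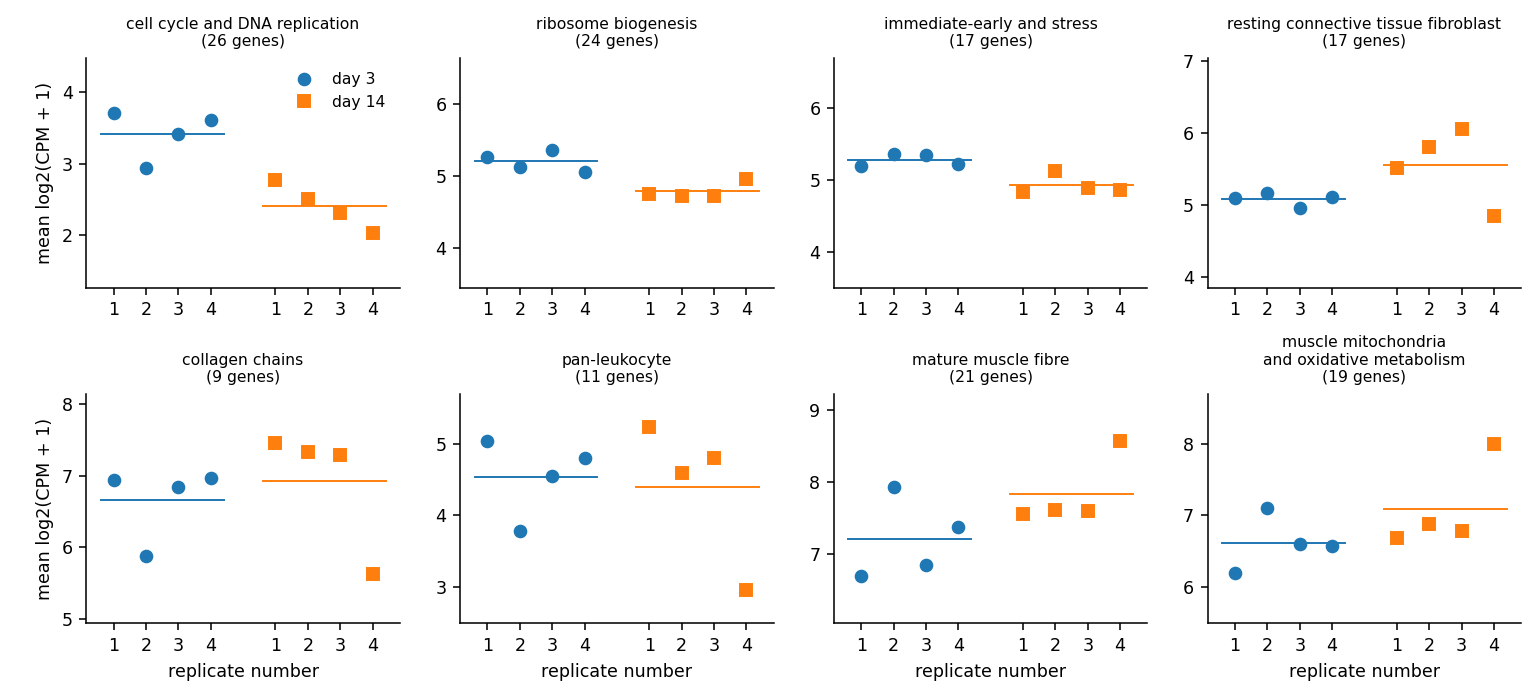
Mean log2(CPM + 1) over the tested members of 8 gene lists in each library, with circles for day 3 and squares for day 14 by replicate number and lines for the mean of each day. Each panel spans the same range on its axis. The cell cycle, ribosome biogenesis and immediate-early and stress lists show no overlap between days. Day 14 replicate 4 lies apart from the other day 14 libraries in the collagen, leukocyte and both muscle panels. That library is also the lowest of day 14 in the fibroblast panel and the highest in the ribosome panel.

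Among immediate-early and stress genes, 4 of 17 fell in edgeR, Cdkn1a, Myc, Sat1 and Tnfrsf12a, beside 3.55% of all genes, and 0 rose. In DESeq2 1 rose, beside 8.9% of all genes, and 6 fell, beside 9.39%. An unadjusted edgeR p under 0.05 was reached by 10 of the 17 (2 higher, 8 lower), beside 3678 of 14160 genes. Cdkn1a encodes p21, which inhibits cyclin-dependent kinases and is induced by p53. It measured 289.4, 535.6, 442.5 and 343.7 CPM on day 3 and 69.2, 95.0, 54.2 and 70.5 CPM on day 14, so the lowest day 3 library was well above the highest of day 14 (log2 fold change -2.48, SE 0.27, edgeR adjusted p = 0.00636). Cdkn1a and Cdk1 thus both fell, an inhibitor of the cell cycle and a kinase of it. Myc, a transcription factor of growth, fell by 1.39, Sat1, which breaks down polyamines, by 1.29, and Tnfrsf12a, the receptor of TWEAK, by 1.08 on the log2 scale. Of the other genes of the list, Atf3 had -0.86, Dusp1 0.99 and Egr2 0.86, and none of these passed.

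Uck2, a kinase that salvages uridine and cytidine, had the lowest adjusted p of the named genes. It measured 70.2, 44.4, 92.2 and 56.0 CPM on day 3 and 9.26, 9.92, 9.41 and 11.2 CPM on day 14 (log2 fold change -2.73, SE 0.24, edgeR adjusted p = 0.00300). The 4 day 14 libraries were nearly level, replicate 4 included. Runx1, a transcription factor of blood cell formation, measured 39.5, 42.3, 52.1 and 33.5 CPM on day 3 and 7.72, 7.57, 7.74 and 3.54 CPM on day 14 (-2.64, SE 0.27, edgeR adjusted p = 0.00586). Replicate 4 was the lowest of day 14 for Runx1, and the days did not overlap with or without it. Tmem158, a membrane protein induced by Ras, had the largest fall among the named genes: 87.0, 44.7, 61.3 and 31.1 CPM on day 3 against 8.73, 5.92, 5.20 and 2.54 CPM on day 14 (-3.31, SE 0.43, edgeR adjusted p = 0.00905). Chrd, chordin, a secreted antagonist of bone morphogenetic proteins, measured 62.3, 45.1, 69.7 and 31.2 CPM on day 3 and 10.7, 11.3, 10.5 and 6.31 CPM on day 14, with no overlap (-2.42, SE 0.30).

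These 4 genes and Cdkn1a were the 5 of 47 named genes past the threshold that stayed past it whichever of the 8 libraries was left out. All 47 passed without day 14 replicate 4 and 42 passed without day 3 replicate 2. Leaving out day 3 replicate 1, 3 or 4 left 7, 8 and 19 of the 47 past the threshold, and leaving out day 14 replicate 1, 2 or 3 left 16, 7 and 8. Pkhd1l1 passed in 7 of the 8 fits, Litaf in 6 and Myh10 in 5, and 39 of the 47 in 4 or fewer.

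Of the genes of early inflammation, 1 passed. Of 15 cytokine, chemokine and early inflammation genes, 11 lay below 0, with a median log2 fold change of -0.42. In edgeR 1 of the 15 fell, beside 3.55% of all genes, and in DESeq2 3 fell, beside 9.39%. The gene that passed in edgeR was Ccl7, which attracts monocytes, at 193.3, 26.1, 246.1 and 61.7 CPM on day 3 and 18.3, 23.0, 15.2 and 5.64 CPM on day 14 (-3.08, SE 0.72, edgeR adjusted p = 0.0463). The days did not overlap for Ccl7, but day 3 replicate 2 lay only just above day 14 replicate 2. Cxcl6 and Ptgs2, a neutrophil-attracting chemokine and the inducible enzyme of prostaglandin synthesis, had log2 fold changes of -2.60 and -2.73 with edgeR adjusted p of 0.11 and 0.15 and DESeq2 adjusted p of 0.016 and 0.028. Il1b, an early cytokine of macrophages, was at 6.59 CPM on day 3 and 6.45 CPM on day 14. Il10, an anti-inflammatory cytokine, was at 0.830, 0.657, 1.64 and 0.642 CPM on day 3 and 2.48, 5.10, 1.73 and 0.553 CPM on day 14, with overlap (log2 fold change 1.40, edgeR adjusted p = 0.190). In the interferon-stimulated list 10 of 12 were negative (median -0.20) and 0 passed in edgeR, in DESeq2 or at an unadjusted edgeR p under 0.05.

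Litaf, a gene induced by lipopolysaccharide, fell from 270.0 ± 99.6 CPM (SD, n = 4) to 63.2 ± 14.6 CPM (log2 fold change -2.09), and Rcan1, which inhibits the phosphatase calcineurin, fell by 2.27 on the log2 scale. Cd24, a sugar-rich surface protein of progenitor and immune cells, measured 127.6, 185.4, 290.7 and 122.5 CPM on day 3 and 17.6, 25.6, 10.8 and 67.0 CPM on day 14. Day 14 replicate 4 was the highest of its day for Cd24, and the log2 fold change was -2.59 with all libraries and -3.34 without that replicate. Prg4, lubricin, a lubricating glycoprotein of joint and serosal surfaces, measured 360.3, 161.9, 350.8 and 153.3 CPM on day 3 and 70.0, 39.7, 21.0 and 33.6 CPM on day 14, without overlap (-2.64, SE 0.45). Cldn15, the other mesothelium gene that could be measured, had a log2 fold change of 0.93 and did not pass, and 2 genes do not measure the mesothelium. Serpinf2, the plasmin inhibitor, fell by 1.61 on the log2 scale. Fndc3c1 fell by 2.03.

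**Figure D3:**
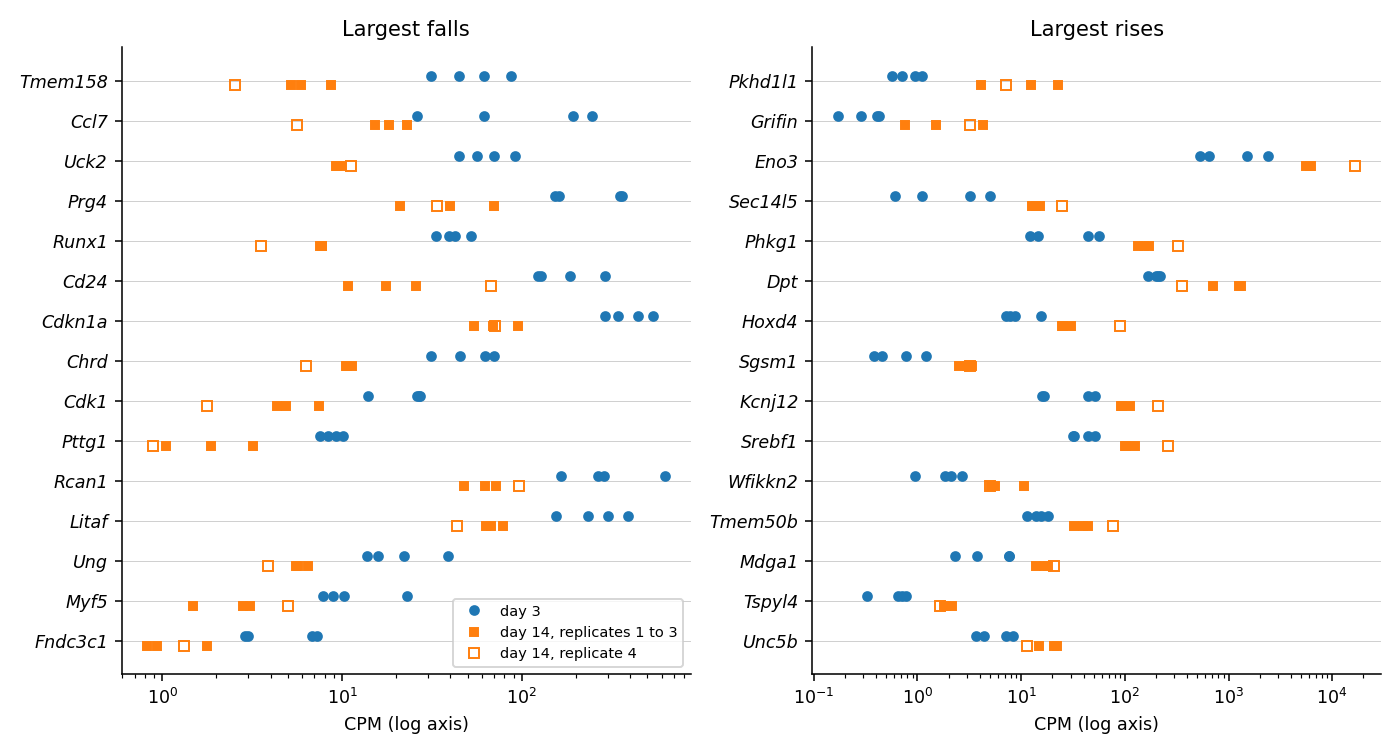
CPM on a log axis in each of the 8 libraries for the 15 named genes with the largest falls and the 15 with the largest rises. Circles are day 3, filled squares day 14 replicates 1 to 3 and open squares day 14 replicate 4. No gene shows overlap between days, which was a condition for being named, and the open square is the highest day 14 value for 8 of the 15 rises and the lowest for 8 of the 15 falls.

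No tested gene of the myeloid and pan-leukocyte lists passed in edgeR. In the pan-leukocyte list, 0 of 11 genes passed and the median log2 fold change was -0.002. Ptprc, the leukocyte surface phosphatase CD45, measured 120.2, 35.5, 66.3 and 84.8 CPM on day 3 and 140.5, 65.1, 103.9 and 17.6 CPM on day 14. The days overlapped for Ptprc, with day 14 replicate 4 the lowest and day 14 replicate 1 the highest of all 8. In the neutrophil list 0 of 5 tested genes passed and in the macrophage list 0 of 4. None of the tested genes of these 3 lists passed in DESeq2 or had an unadjusted edgeR p under 0.05. The neutrophil list names 25 genes and the macrophage list 36, and in each list only 5 had a symbol here. Members without a symbol could not be looked up among the genes tested, so their absence says nothing about their level. S100a8 and Cd68 were not among the members measured. The few genes tested do not measure neutrophils or macrophages as a whole. The neutrophil gene Retnlg and the macrophage gene Aif1 had log2 fold changes of 0.60 and -0.50, with overlap. The summed CPM of the pan-leukocyte list was 199.8 to 550.1 on day 3 and 132.3 to 627.8 on day 14, the lowest being replicate 2 on day 3 and replicate 4 on day 14.

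Of the lymphocyte genes, 1 passed in edgeR. Of 9 T and NK cell genes 7 were above 0 with a median log2 fold change of 0.73, and 0 passed in edgeR. In DESeq2 2 rose, beside 8.9% of all genes. An unadjusted edgeR p under 0.05 was reached by 2, near the share of all genes (3678 of 14160). Cd247, the zeta chain of the T cell receptor, measured 1.69, 0.303, 0.246 and 0.257 CPM on day 3 and 8.49, 2.27, 3.28 and 1.22 CPM on day 14 (log2 fold change 2.57, edgeR adjusted p = 0.0944). Its values overlapped because day 3 replicate 1 lay above day 14 replicate 4. Jchain, which joins secreted IgM and IgA and marks plasma cells, measured 2.27, 1.01, 0.942 and 0.471 CPM on day 3 and 43.3, 6.54, 15.0 and 1.88 CPM on day 14. It passed the test (3.81, SE 0.92, edgeR adjusted p = 0.0492) although the days overlapped. With 1 library left out, Jchain passed in only 1 of 8 fits (edgeR adjusted p up to 0.14). Jchain was the 1 gene of 6 in the B and plasma cell list that passed, beside 2.07% of all genes that rose. In the antigen presentation list 0 of 10 passed in edgeR. In DESeq2 1 rose, beside 8.9% of all genes, and 3 had an unadjusted edgeR p under 0.05, beside 3678 of 14160. Without day 14 replicate 4, 3 rose, beside 5.78% of all genes: the class II genes RT1-Ba and RT1-DOb and the class I gene RT1-CE5.

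Of the 27 collagen chain genes in the list only 9 had a symbol here, and the others could not be looked up. None of the 9 passed in edgeR with all libraries, and day 14 replicate 4 lay far from the other day 14 libraries. The fibrillar collagen gene Col1a1 measured 2939, 910.2, 4017 and 4672 CPM on day 3 and 4822, 4624, 3809 and 718.3 CPM on day 14 (log2 fold change 0.16, edgeR adjusted p = 0.90). Of 9 collagen chain genes 7 were above 0, with a median of 0.28, and 0 passed in edgeR, in DESeq2 or at an unadjusted edgeR p under 0.05. Their summed CPM was 10530, 4936, 13720 and 14890 on day 3 and 17900, 18100, 17260 and 2482 on day 14. Without replicate 4 the median was 0.52 and 2 of the 9 rose, beside 5.78% of all genes: Col6a1 (1.79) and Col6a2 (1.52), chains of microfibrillar collagen VI.

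Single matrix genes moved in both directions. Dpt, dermatopontin, which binds decorin and helps collagen fibrils assemble, measured 165.6, 218.0, 199.4 and 207.7 CPM on day 3 and 701.6, 1265, 1333 and 358.0 CPM on day 14, so that replicate 4 was the lowest of day 14 and still above day 3 (2.21, SE 0.41, edgeR adjusted p = 0.0260). Timp3, a matrix-bound inhibitor of metalloproteinases, measured 26.9, 17.1, 9.25 and 19.2 CPM on day 3 and 49.0, 53.0, 48.0 and 41.9 CPM on day 14, without overlap (1.40, SE 0.29). Eln, elastin, went from 211.9 to 901.7 CPM with overlap (2.09, edgeR adjusted p = 0.061, and 0.012 without replicate 4). Cthrc1, a secreted protein of collagen-making fibroblasts, had a log2 fold change of 1.81 (edgeR adjusted p = 0.091, and 0.0060 without replicate 4). The list of elastic fibre and small proteoglycan genes thus held 1 gene that rose, Dpt, and 1 that fell, Prg4, of 10. Over all genes, 2.07% rose and 3.55% fell.

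Of 7 myofibroblast and TGF-beta genes 2 rose, beside 2.07% of all genes, with a median of 0.95: Myh10, a non-muscle myosin heavy chain, and Mylk, the kinase of myosin light chain. Myh10 measured 46.8, 56.8, 44.2 and 55.7 CPM on day 3 and 121.3, 136.1, 175.1 and 91.6 CPM on day 14, with no overlap (1.37, SE 0.22, edgeR adjusted p = 0.0168). Mylk had a log2 fold change of 0.96. In the list of resting connective tissue fibroblast genes 13 of 17 were above 0 (median 0.54) and 0 passed in edgeR. In DESeq2 4 rose, beside 8.9% of all genes. An unadjusted edgeR p under 0.05 was reached by 4, near the share of all genes (3678 of 14160). Without day 14 replicate 4, 5 of these 17 rose, beside 5.78% of all genes: Itgbl1, Ccdc80, Fibin, Serpinf1 and Igfbp7. Pdgfra, a receptor on fibroblasts, had -0.59 with overlap.

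Of 5 pericyte and vascular smooth muscle genes 1 rose, beside 2.07% of all genes: Rgs4, a regulator of G protein signalling (log2 fold change 1.01), while Rgs5, a defining marker of pericytes, had 0.85 (edgeR adjusted p = 0.196). Of 15 endothelial genes 0 passed in edgeR, and in DESeq2 2 rose, beside 8.9% of all genes. An unadjusted edgeR p under 0.05 was reached by 4, near the share of all genes (3678 of 14160). Flt1, a receptor of vascular endothelial growth factor, was at 34.8 CPM on day 3 and 38.5 CPM on day 14. In the Schwann cell and axon list 13 of 18 were above 0 (median 0.60) and 1 rose, beside 2.07% of all genes. This was Unc5b, a receptor of netrin in axons and vessels, at 8.39, 3.69, 4.38 and 7.10 CPM on day 3 and 22.2, 14.8, 20.6 and 11.5 CPM on day 14, without overlap (1.55, SE 0.33). S100b, a calcium-binding protein of Schwann cells, had a log2 fold change of 1.45 with overlap and did not pass.

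Mature muscle genes passed in both directions. Of 21 members tested 3 rose, Eno3, Phkg1 and Kcnj12, and 1 fell, Tuba4a, beside 2.07% and 3.55% of all genes, and the median was 0.39. Eno3, the muscle form of the glycolytic enzyme enolase, measured 650.1, 2399, 527.6 and 1518 CPM on day 3 and 6235, 5569, 6124 and 16680 CPM on day 14, without overlap (2.76, SE 0.62, edgeR adjusted p = 0.0408). Phkg1, the catalytic subunit of muscle phosphorylase kinase in glycogen breakdown, measured 14.4, 56.6, 12.2 and 43.8 CPM on day 3 and 169.9, 133.7, 153.8 and 322.5 CPM on day 14, also without overlap (2.62, SE 0.56). Kcnj12, an inward rectifier potassium channel, rose by 1.99 on the log2 scale.

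Mb, myoglobin, the oxygen store of muscle, measured 535.3, 3001, 597.9 and 1449 CPM on day 3 and 2092, 3669, 2300 and 6635 CPM on day 14, and the days overlapped (1.40, edgeR adjusted p = 0.204). Tuba4a, an alpha tubulin, went the other way, from 849.9 ± 326.9 CPM (SD, n = 4) to 282.7 ± 103.6 CPM (-1.59). Fhl1, a muscle LIM protein, was at 4088 CPM on day 3 and 3244 CPM on day 14 and did not pass. The summed CPM of the muscle list was 7070, 16660, 8901 and 10990 on day 3 and 14650, 16760, 14750 and 37430 on day 14. Day 3 replicate 2 thus lay within the range of day 14 replicates 1 to 3, and day 14 replicate 4 lay above every other library. Without day 14 replicate 4 the median of the list was 0.06, with 5 genes that rose and 3 that fell, beside 5.78% and 7.39% of all genes. The part of unequal muscle RNA in the changes of other genes was not tested.

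The oxidative metabolism list had 15 of 19 genes above 0 and a median of 0.81, with 0 that passed in edgeR. In DESeq2 4 rose, beside 8.9% of all genes, and 7 had an unadjusted edgeR p under 0.05, beside 3678 of 14160. The list's median was 0.17 without day 14 replicate 4. The summed CPM of that list was 2939 to 5127 on day 3, 4743 to 5267 in day 14 replicates 1 to 3 and 12120 in replicate 4. Of 23 genes of the mitochondrial chromosome tested, 22 were above 0 (median 0.87). At an edgeR adjusted p of 0.05 or lower 2 rose, beside 2.07% of all genes. Mitochondrial counts made up 3.92% to 5.85% of day 3 and 5.37% to 8.22% of day 14 libraries. Myf5, a transcription factor of muscle stem cells, measured 7.80, 8.90, 23.1 and 10.3 CPM on day 3 and 3.07, 2.82, 1.49 and 4.98 CPM on day 14, with no overlap (-2.04, SE 0.46, edgeR adjusted p = 0.0420). It was the 1 of 6 genes of regenerating and stressed muscle that passed, beside 3.55% of all genes that fell.

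**Figure D4:**
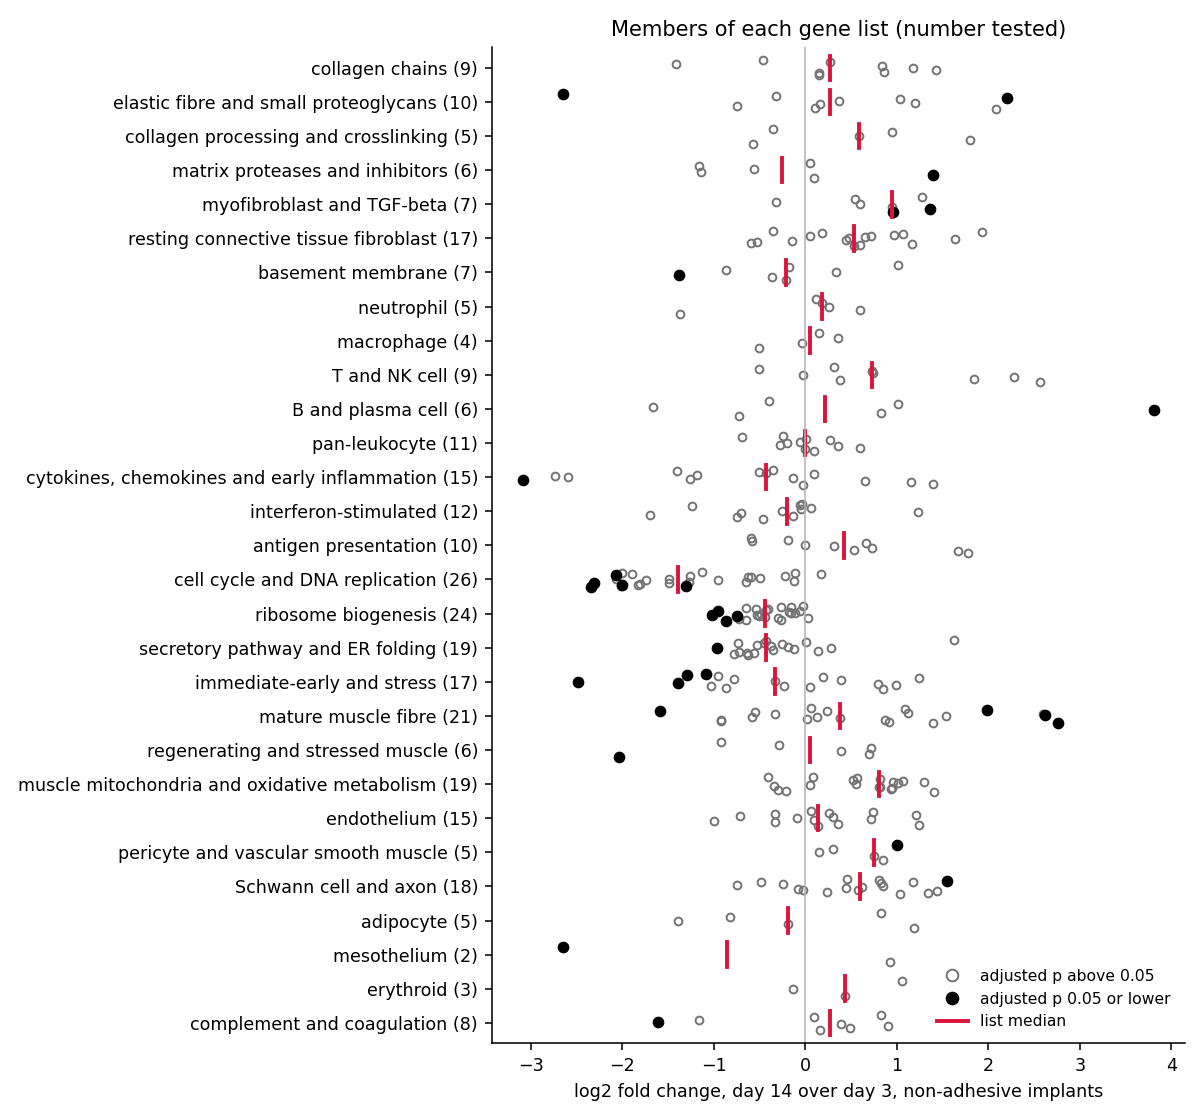
Log2 fold change of day 14 over day 3 for every tested member of 29 gene lists at the non-adhesive implants, with filled points for an edgeR adjusted p of 0.05 or lower and a red bar for the list median. The cell cycle list has its median at -1.39 with 25 of 26 members below 0, and the pan-leukocyte median is -0.002.

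Lists with few measured genes gave few calls. In edgeR 0 of 5 collagen processing genes passed (1 in DESeq2, and 1 at an unadjusted edgeR p under 0.05), and likewise 0 of 5 adipocyte genes (0 and 2) and 0 of 3 erythroid genes (1 and 1). Over all genes, 8.9% rose and 9.39% fell in DESeq2, and 3678 of 14160 had that unadjusted p. Besides Timp3 of 6 matrix protease and inhibitor genes and Serpinf2 of 8 complement and coagulation genes, no other member of those 2 lists passed in edgeR. Over all genes, 2.07% rose and 3.55% fell in edgeR.

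Several of the largest rises belonged to no list. Pkhd1l1, a large membrane protein related to fibrocystin, measured 1.11, 0.708, 0.573 and 0.941 CPM on day 3 and 12.6, 4.06, 22.8 and 7.19 CPM on day 14 (3.79, SE 0.56, edgeR adjusted p = 0.0130). Day 14 ranged widely for Pkhd1l1, and its lowest library was well above all of day 3. Srebf1, the transcription factor of fatty acid synthesis, measured 32.6, 51.8, 31.5 and 43.7 CPM on day 3 and 103.5, 99.6, 125.6 and 263.4 CPM on day 14 (1.89, SE 0.35), with replicate 4 again the highest. Hoxd4, a homeobox gene of body position, was highest in the same library, and its log2 fold change was 2.12 with it and 1.45 without it. Wfikkn2, which binds myostatin, rose by 1.80, and Mdga1, a cell adhesion protein of neurons, by 1.70. Sec14l5, Sgsm1, Tmem50b and Tspyl4 rose by 2.76, 2.10, 1.70 and 1.61 on the log2 scale. Grifin, a galectin relative of the lens, rose by 2.88 from a mean of only 0.323 CPM on day 3.

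The other called genes with a symbol had log2 fold changes of 1.01 to 1.51 for the 14 higher and of -2.42 to -1.01 for the 21 lower. The gene with the identifier ENSRNOG00000038047, on chromosome 17, had the most counts among those whose fold changes were largest without a symbol. It fell from 329.1, 238.2, 579.6 and 142.8 CPM on day 3 to 2.95, 4.06, 3.72 and 2.32 CPM on day 14 (-6.62, SE 0.51, edgeR adjusted p = 0.00299). ENSRNOG00000014231, on chromosome 15, rose from 1, 3, 3 and 0 counts on day 3 to 80, 43, 179 and 18 counts on day 14 (6.07, SE 0.84, a fold that rests on few day 3 counts).

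The same day comparison at the adhesive implants called 1452 of 13716 genes (10.6%), and the libraries of the 2 implants were separate. The non-adhesive count was 575 with all libraries and 1101 without day 14 replicate 4. Such counts do not test a difference between the implants. The test of the difference, the non-adhesive day change minus the adhesive day change, passed for 1 of 14601 genes (0.00685%) in edgeR, while 692 genes had an unadjusted p under 0.05, and 25 passed in DESeq2. The gene, ENSRNOG00000033734 on chromosome 13, has no symbol in the sources used. It measured 70.5, 194.8, 68.9 and 130.5 CPM on day 3 and 13.5, 7.64, 10.3 and 13.2 CPM on day 14 at the non-adhesive implants, without overlap. Its log2 fold change was -3.38 there and 0.03 at the adhesive implants (means of 128.3 and 130.8 CPM on days 3 and 14), a difference of -3.37 (SE 0.43, edgeR adjusted p = 0.0160). No gene passed in 9 of 16 fits that left out 1 library.

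Of the 30 named genes with the largest changes, 29 were tested at the adhesive implants, 28 had the same sign there and 20 had an edgeR adjusted p of 0.05 or lower, beside 22.8% of all genes tested there. These genes were chosen for large changes at the non-adhesive implants, so smaller values at the adhesive implants are no result. Tmem158 had -3.31 at the non-adhesive and -1.10 at the adhesive implants, Cdkn1a -2.48 and -1.24, and Prg4 -2.64 and -2.91. Sgsm1 was the 1 gene with opposite signs, at 2.10 and -0.77. None of these differences passed, with the lowest edgeR adjusted p of the difference at 0.738, which does not show that the changes were alike.

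**Figure D5:**
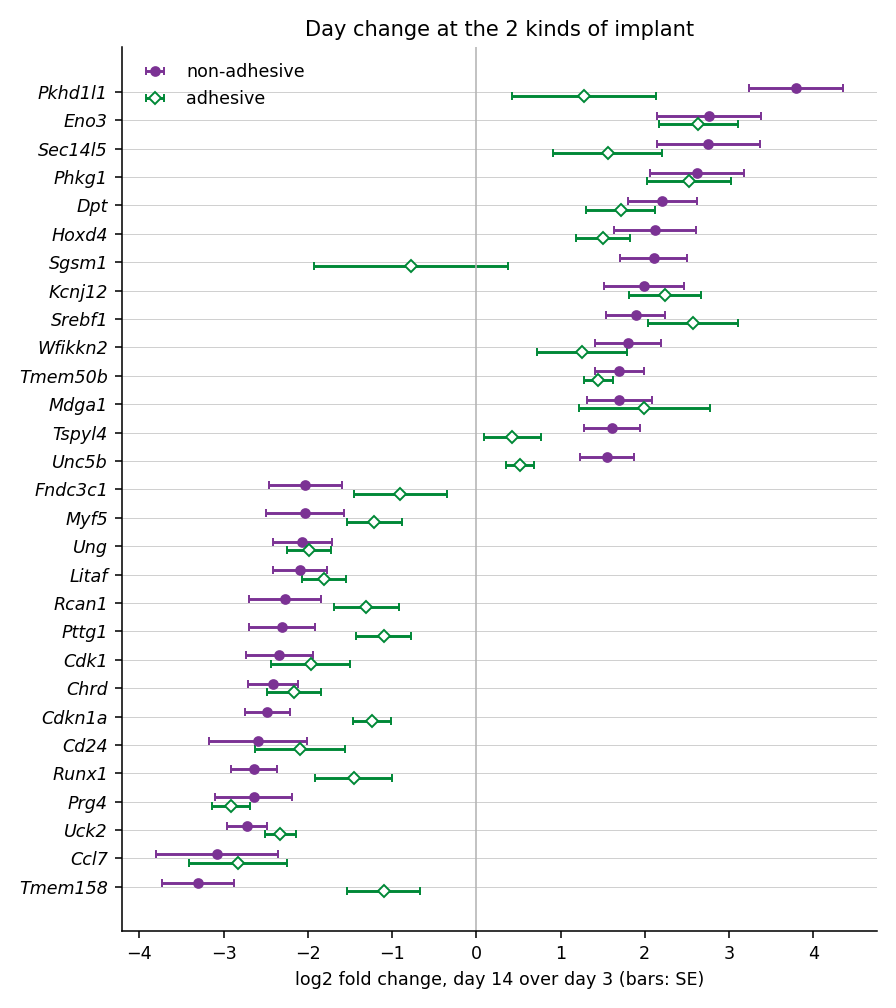
Log2 fold change of day 14 over day 3 with its SE for 29 named genes at the non-adhesive implants (filled circles) and the adhesive implants (open diamonds), 4 libraries per day and implant. All but Sgsm1 lie on the same side of 0 at both implants, and Tmem158 and Pkhd1l1 lie farthest from 0 at the non-adhesive implants among falls and rises.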

How the data were processed

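Samples were grouped by their descriptions into non-adhesive and adhesive implants on day 3 and day 14, with 4 libraries each. The deposited values are raw counts of reads per gene, which the authors made with STAR and featureCounts after adaptor removal with cutadapt and demultiplexing with bcl2fastq 2.17. A rat assembly is stated in the methods and a mouse build in the processing notes, so no coordinates of the files are given. The strand setting of the counting is not given in the sources used here, so overlapping and antisense genes may share reads. All libraries had an RNA integrity number above 7.8, per the labels.

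Counts were filtered with filterByExpr, scaled with TMM factors and tested with edgeR 4.0.16 (quasi-likelihood, robust) in R 4.3.3 on the 8 non-adhesive libraries without covariates. The interaction was fitted over 16 libraries. DESeq2 1.42.0 and limma 3.58.1 (voom), other scalings, filters and leaving out each library were alternatives. The script was tested on simulated data. Symbols came from a shortened copy of the study's supplementary table, for 13.5% of genes tested, and 30 lists held 316 tested genes. The named genes with a symbol all had low Ensembl numbers, so they were no random draw from the genes tested. Genes without a symbol could not enter the lists or the 15 largest rises and falls. The list of mitochondrially encoded genes had 0 tested members with a symbol, and the chromosome MT was used. The genes and lists were chosen with earlier results of these data known. Named genes were the 15 largest rises and 15 largest falls with a symbol, a mean of at least 1 CPM and no overlap between days, up to 4 members per list past the adjusted p, defining markers, Il10 and genes called for the interaction. Same-numbered libraries of the days were not treated as pairs in the main fit (correlations of deviations -0.388 to 0.478). No replicate libraries held identical values (Pearson r of log2 CPM 0.9595 to 0.994 within a day). Results for some genes are not reported here.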

Additional observations from a re-analysis of the deposited data

Results flagged for a closer look

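In 21 of 194 groups of 4 libraries examined, the highest or lowest library lay farther from the other 3 than Dixon's 95% critical value allows, where chance gives about 1 in 20. Day 14 replicate 4 was that library in 13 of the 21 and day 3 replicate 2 in 3.

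Day 14 replicate 4 was above the other day 14 libraries in Eno3 (16680 CPM), Hoxd4 (90.7 CPM), Kcnj12 (210.0 CPM) and Srebf1 (263.4 CPM), and below them in Chrd (6.31 CPM), Runx1 (3.54 CPM) and Sat1 (61.5 CPM). It was also above in the summed CPM of the lists of mature muscle fibre (37430), oxidative metabolism (12120) and erythroid genes (130.1), and below in that of collagen chains (2482). The erythroid sum was mostly 1 gene, Tfrc (124.6 CPM), with Alas2 at 5.20 CPM. Klf1, at 0.332 CPM, was lowest of day 14 in this library, so the sum does not measure erythroid cells. Its 10 most abundant genes took 28.7% of the counts and its TMM factor was 0.581.

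Day 3 replicate 2 was below the other day 3 libraries in Cdk1 (14.0 CPM) and in the summed CPM of the lists of collagen processing (94.7) and resting fibroblast genes (930.3). By mean log2(CPM + 1) the resting fibroblast list was instead highest of day 3 in that library (5.161, against 4.959 to 5.114). The low sum thus does not describe most members of that list. In single genes, day 3 replicate 1 was above in the T and NK cell genes Cd247 (1.69 CPM) and Prf1 (2.86 CPM), day 3 replicate 3 in Myf5 (23.1 CPM), day 3 replicate 4 in the neutrophil gene Retnlg (12.96 CPM), and day 14 replicate 2 in Wfikkn2 (10.7 CPM).

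The day change of ENSRNOG00000033734 differed between the implants by -3.37 on the log2 scale, by the test of the difference itself (edgeR adjusted p = 0.0160). No gene passed in 9 of 16 fits that left out 1 library, and none with the replicate block.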

How the results depend on the processing

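The edgeR fit of the 8 libraries called 575 genes (245 higher, 330 lower). DESeq2 called 1383 (813 and 570), edgeR on all 16 libraries 1325 (777 and 548), library totals without TMM 1223 (198 and 1025), glmTreat against a log2 fold change of 1 called 30 (5 and 25), and the adjusted p alone gave 502 lower. The cause of these differences was not tested. Without TMM the median of all genes was -0.387 on the log2 scale, against -0.003 with it, and higher genes were 198 of 1223 calls. Under that scaling the medians of the collagen chain and mature muscle lists turned to -0.05 and -0.10, and those of the cell cycle and ribosome biogenesis lists were -1.76 and -0.84. DESeq2's size factors, limma-voom, no filter on low counts, and TMM without mitochondrial and abundant genes gave 563 to 615 calls.

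Leaving out each library gave 108 to 1101 calls, 29 to 616 higher and 75 to 485 lower. Without day 3 replicates 1 to 4 the calls were 117, 996, 128 and 304, and without day 14 replicates 1 to 4 they were 178, 108, 111 and 1101. No named gene past the threshold turned direction under any alternative run. The difference between implants passed for 25 genes in DESeq2 and for 0 to 3 when 1 library was left out (0 in 9 of 16 such fits), with 3 without non-adhesive day 14 replicate 4.

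With the replicate block, 7 genes were called (2 higher, 5 lower) and 0 for the difference between implants. Correlations of same-numbered deviations ran from -0.388 to 0.478, and 1 of 4 day 3 libraries correlated best with its own number. The highest correlation was that of day 3 replicate 2 with day 14 replicate 4 (0.633). Whether same-numbered libraries shared a batch is not given in the sources used here, and these correlations cannot show it.

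The 4 libraries a day, 14710269 to 24858976 counts each, and symbols for 13.5% of tested genes limit what the lists can show.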
